A study of Homo sapiens with 6 samples.

Results

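The genes described here are 10 human tubulin genes that were picked by name: the alpha-tubulin genes *TUBA1A*, *TUBA1B*, *TUBA1C* and *TUBA4A*, the beta-tubulin genes *TUBB2A*, *TUBB2B*, *TUBB3*, *TUBB4B* and *TUBB6*, and the gamma-tubulin gene *TUBG1*. They are 10 of 67016 genes in the count table, and their identifiers were matched to symbols through GENCODE 44. The rule that names them uses no measured value, except that *TUBB* was left out because it was listed at 0 counts in all 6 libraries. The set was nevertheless chosen with earlier results of these data known, so it is not a blind pick. Of 13 further tubulin genes, 8 had enough counts to be tested.

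SH-SY5Y, a human neuroblastoma cell line labelled as a neuronal progenitor, was infected with 0.5 µl of an adenovirus and RNA was taken 24 h later. The Ad CMV 3xFlag-*Esrrg* virus carried the coding sequence of mouse *Esrrg*, which encodes the orphan nuclear receptor ERRγ, with a 3xFlag tag under the CMV promoter. The control virus was Ad CMV GFP, so both groups were infected cells of 1 line and no uninfected group was analysed here. Libraries were made from total RNA after depletion of ribosomal RNA, with 3 libraries numbered 1, 3 and 4 for Ad CMV GFP and 3 numbered 2, 3 and 4 for Ad CMV 3xFlag-*Esrrg*. The labels do not say that the libraries came from separate cultures, so the p-values measure only the spread between these libraries, which may be technical.

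Alpha- and beta-tubulin form the heterodimer from which microtubules are built, and gamma-tubulin sits in the ring complex that starts new microtubules. Several genes encode near-identical proteins, called isotypes, that differ mostly in the acidic tail at the carboxyl end. The tail is where enzymes add or remove tyrosine and glutamate, and the first residues of alpha- and beta-tubulin are read during translation by a system that lowers tubulin mRNA when free tubulin is in excess. *TUBA1A*, *TUBB2A*, *TUBB2B* and *TUBB3* are known as the isotypes of developing neurons, *TUBA4A* as an isotype of mature neurons and platelets, and *TUBA1B*, *TUBB4B* and *TUBB6* as widely expressed isotypes.

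The starts of the coding sequences are shown because the first 4 codons, here in capitals, encode the residues of nascent alpha- and beta-tubulin that autoregulation recognises. Each line gives the first 30 coding bases of the canonical GENCODE 44 transcript on GRCh38, 5′ to 3′. *TUBG1*, which is neither an alpha nor a beta gene, is marked in the same way for comparison only.
*TUBA1A*: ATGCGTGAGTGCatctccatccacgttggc
*TUBA4A*: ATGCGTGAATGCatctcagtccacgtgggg
*TUBB2A*: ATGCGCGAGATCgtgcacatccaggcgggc
*TUBB2B*: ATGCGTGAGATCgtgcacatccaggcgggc
*TUBB3*: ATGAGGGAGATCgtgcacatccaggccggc
*TUBB4B*: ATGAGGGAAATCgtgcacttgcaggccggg
*TUBB6*: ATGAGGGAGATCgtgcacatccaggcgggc
*TUBG1*: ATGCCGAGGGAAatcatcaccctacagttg
*TUBA1B* and *TUBA1C* start with the same 30 bases as *TUBA1A*.

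The last 30 coding bases before the stop codon encode the end of the tail, where the isotypes differ most. They are shown for 7 genes, with the last codon in capitals.
*TUBA1C*: gctgacggagaggatgagggtgaagagTAT
*TUBA4A*: tcctatgaggacgaggatgagggagaaGAA
*TUBB2A*: ttcgaggaggaggagggcgaggacgagGCT
*TUBB2B*: ttcgaggaggaggagggcgaggacgagGCG
*TUBB3*: gaggaggagtcggaggcccagggccccAAG
*TUBB4B*: ttcgaggaggaggctgaggaggaggtgGCC
*TUBB6*: tttgaggatgaggaagaggagatcgatGGA
*TUBB2A* and *TUBB2B* differ here only in the last codon. The *TUBA1C* sequence ends in a tyrosine codon, while the last codon of *TUBA4A* encodes glutamate. Across the whole coding sequence *TUBA1A* and *TUBA1B* were 97.2% identical with 38 differing positions, and *TUBB2A* and *TUBB2B* were 98.1% identical with 25. Identity was 84.4 to 97.2% within the alpha genes, 83.2 to 98.1% within the beta genes and 52.2 to 53.7% between them.

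The overexpressed gene was checked first. Human *ESRRG* had 83.6, 90.4 and 86.9 CPM (read counts normalized to a common library size) in Ad CMV GFP replicates 1, 3 and 4, and 570, 772 and 778 CPM in Ad CMV 3xFlag-*Esrrg* replicates 2, 3 and 4, so the groups did not overlap. The log2 fold change was 3.02 (SE 0.14, adjusted p = 6.3e-07), although the virus carries the mouse sequence and only reads similar enough to the human gene are counted. Reads counted on genes ranged from 24969759 to 29700980 per Ad CMV GFP library and from 26513620 to 40859666 per Ad CMV 3xFlag-*Esrrg* library. The share of all reads that fell outside annotated exons was 51.3 to 52.2% with Ad CMV GFP, but 46.6, 31.6 and 29.5% in Ad CMV 3xFlag-*Esrrg* replicates 2, 3 and 4. Replicate 2 therefore stood apart from replicates 3 and 4 of its group, and this share and the virus cannot be told apart in the pooled comparison. Among 10 markers of sympathetic neuroblastoma cells, *TH* and *CHGA* were listed at 0 in all libraries. Their levels cannot be read from these counts, and a listed 0 need not mean that the RNA was absent. The summed level of the list, to which they add nothing, was 664 to 720 CPM with Ad CMV GFP and 520 to 683 CPM with Ad CMV 3xFlag-*Esrrg*. *PHOX2A* was higher, *DBH* was lower, and *HAND2* had the highest level of the list at a mean of 316 CPM. The 10 markers of mesenchymal or Schwann-type cells summed to 3238 to 3279 CPM with Ad CMV GFP and to 3911 to 4006 CPM with Ad CMV 3xFlag-*Esrrg*. None of the 10 was at 0, and most of the sum came from *FN1*, which had 1956 ± 27.4 CPM with Ad CMV GFP and 2691 ± 71.7 CPM with Ad CMV 3xFlag-*Esrrg* (SD, n = 3). The groups did not overlap for *FN1* (log2 fold change 0.46, adjusted p = 0.0079), but the change was under the 1.5-fold cutoff that a call needed here. *COL1A2* and *YAP1* were among 3 genes of the list that fell past that cutoff. The part of these marker levels in the tubulin results was not tested, and in bulk RNA fewer cells of a type and less RNA per cell cannot be told apart.

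All 10 tubulin genes had more normalized counts in every Ad CMV 3xFlag-*Esrrg* library than in any Ad CMV GFP library. The same held for 27.8% of the 24500 genes tested and for 41.9% of the 13746 protein-coding genes among them. Genes were called with edgeR's quasi-likelihood test at a Benjamini-Hochberg adjusted p of 0.05 and a 1.5-fold change, and 9 of the 10 rose and 0 fell. Over all tested genes 17.3% rose and 16.8% fell, and over protein-coding genes 25.9% rose and 12.4% fell. The median log2 fold change was 1.19 over the 10 tubulin genes, -0.10 over all tested genes and 0.12 over protein-coding genes. The only gene of the 10 not called was *TUBB3*, which had an adjusted p of 0.0029 but a 1.48-fold change. With the adjusted p alone and no fold cutoff all 10 rose, against 24.3% of all tested genes. With library size as the only scaling 9 rose, against 8.98%, and after a correction for GC content and exon length 9 rose, against 13.2%.

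**Figure D1:**
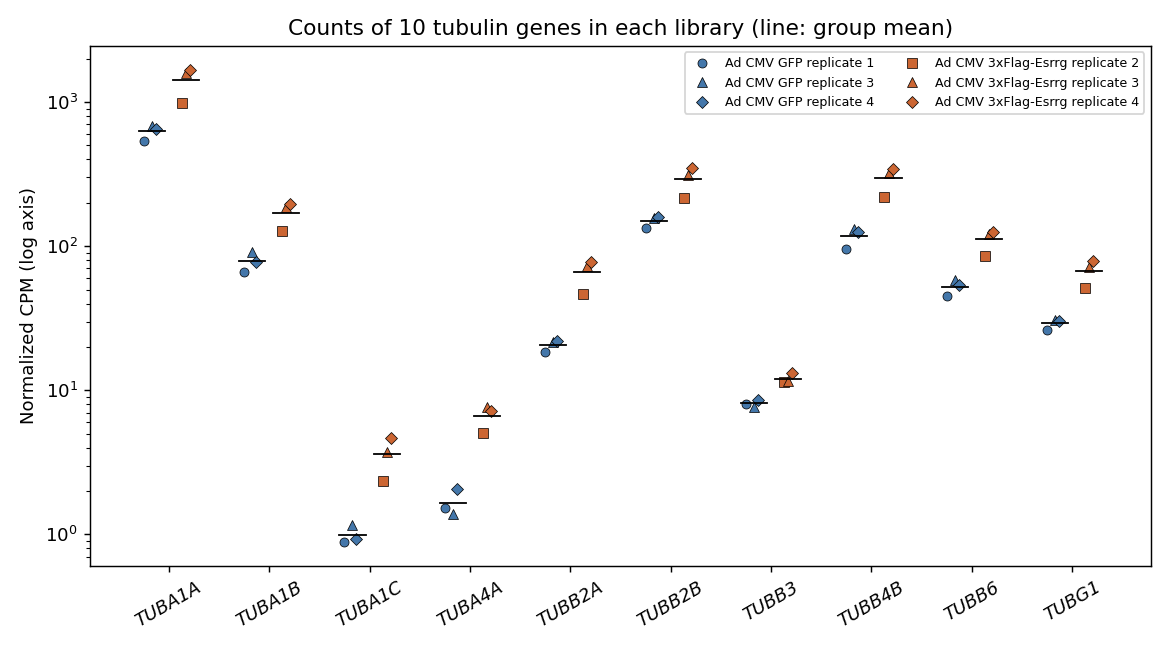
Normalized counts (CPM) on a log axis for each of the 10 tubulin genes in each library, with blue points for Ad CMV GFP, orange points for Ad CMV 3xFlag-Esrrg, marker shapes for the replicate number and a line at the group mean (n = 3). The orange points sit above the blue points for all 10 genes, and the square of replicate 2 is the lowest orange point for each gene.

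The alpha-tubulin genes were led by *TUBA1A* (chr12:49184686-49189080, minus strand), the main alpha isotype of young neurons and the most abundant of the 10 genes. Its level was 539, 687 and 654 CPM in Ad CMV GFP replicates 1, 3 and 4 and 991, 1593 and 1681 CPM in Ad CMV 3xFlag-*Esrrg* replicates 2, 3 and 4. The lowest Ad CMV 3xFlag-*Esrrg* library was still 1.58 times the Ad CMV GFP mean, while the other two were 2.54 and 2.68 times that mean. *TUBA1A* rose 2.27-fold (log2 fold change 1.18, SE 0.19, adjusted p = 6.8e-04), from 627 ± 77.9 to 1422 ± 376 CPM (SD, n = 3). Of its 3823 exon bases, 413 are shared with exons on the opposite strand, a limit described below for *TUBA1B*.

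*TUBA1B* (chr12:49127782-49131397, minus strand), the ubiquitous alpha isotype, had 66.6, 91.5 and 78.2 CPM with Ad CMV GFP and 128, 187 and 196 CPM with Ad CMV 3xFlag-*Esrrg*. The groups were apart, and the change of 2.16-fold was close in size to that of *TUBA1A* (log2 fold change 1.11, SE 0.17, adjusted p = 4.3e-04). Of its 3574 exon bases, 1571 are shared with exons on the opposite strand, where the annotation has *TUBA1B-AS1*. The libraries were made with a directional kit, but the strand setting of the counting is not given in the sources used here. Whether reads on the shared bases were counted for *TUBA1B*, for its partner or for neither is therefore not stated. Of 25 protein-coding genes with over 90% of their exon bases under opposite-strand exons alone, 18 (72%) had 0 counts. That share was close to the 75.3% of 368 genes covered in the same way on their own strand. It was far above the 18.7% of 10499 genes that share no exon base.

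*TUBA1C* (chr12:49188736-49274600, plus strand) and *TUBA4A* (chr2:219249710-219277902, minus strand) were rare and changed the most. Of their exon bases, 1011 of 4454 and 740 of 3698 are shared with exons on the opposite strand, so the same limit holds for them. The span of *TUBA1C* overlaps that of *TUBA1A* on the opposite strand, and their coding sequences are 95.9% identical. *TUBA1A* had 15187 to 57277 reads per library, and whether any of them were counted for *TUBA1C* was not tested. *TUBA1C* had 25, 36 and 31 reads with Ad CMV GFP and 63, 126 and 159 with Ad CMV 3xFlag-*Esrrg*. On the normalized scale this was 0.887, 1.16 and 0.937 CPM against 2.36, 3.74 and 4.67 CPM. No Ad CMV GFP library reached the lowest Ad CMV 3xFlag-*Esrrg* library, and the gene rose 3.61-fold (log2 fold change 1.85, SE 0.28, adjusted p = 4.1e-04). *TUBA4A*, whose mRNA lacks the final tyrosine codon, had 43, 43 and 68 reads with Ad CMV GFP and 135, 256 and 245 with Ad CMV 3xFlag-*Esrrg*, or 1.53, 1.39 and 2.05 CPM against 5.05, 7.61 and 7.19 CPM. Its highest Ad CMV GFP library was well below its lowest Ad CMV 3xFlag-*Esrrg* library, and with 3.98-fold (log2 fold change 1.99, SE 0.22, adjusted p = 8.6e-05) it had the largest fold change of the 10 genes.

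Among the beta-tubulin genes, *TUBB2A* (chr6:3153497-3157544, minus strand) changed the most. It had 18.5, 21.6 and 21.9 CPM with Ad CMV GFP and 46.4, 72.6 and 78.3 CPM with Ad CMV 3xFlag-*Esrrg*. Every library with *Esrrg* was at least 2.24 times the Ad CMV GFP mean, and the change was 3.18-fold (log2 fold change 1.67, SE 0.18, adjusted p = 7.0e-05). Its neighbour and close copy *TUBB2B* (chr6:3223324-3231730, minus strand) had 133, 157 and 159 CPM with Ad CMV GFP and 215, 314 and 347 CPM with Ad CMV 3xFlag-*Esrrg*. *TUBB2B* rose 1.95-fold (log2 fold change 0.96, SE 0.16, adjusted p = 8.7e-04), with replicate 2 at only 1.44 times the control mean. The division of reads between *TUBB2A* and *TUBB2B* is uncertain, since 37.5% of the 100-base windows of *TUBB2A* exons and 23% of those of *TUBB2B* occur elsewhere in the genome without a mismatch.

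*TUBB4B* (chr9:137241287-137243707, plus strand), a widely expressed beta isotype, had 95.7, 131 and 125 CPM with Ad CMV GFP and 221, 321 and 345 CPM with Ad CMV 3xFlag-*Esrrg*. The groups did not overlap, and the gene rose 2.53-fold (log2 fold change 1.34, SE 0.17, adjusted p = 2.0e-04). *TUBB6* (chr18:12307669-12344320, plus strand), another widely expressed beta isotype, had 45.1, 58.3 and 54.0 CPM with Ad CMV GFP and 85.9, 122 and 126 CPM with Ad CMV 3xFlag-*Esrrg*. It rose 2.12-fold (log2 fold change 1.09, SE 0.15, adjusted p = 3.0e-04), again with replicate 2 between the control libraries and replicates 3 and 4. Of the 3941 exon bases of *TUBB6*, 837 are shared with exons on the opposite strand, so the limit given for *TUBA1B* holds here too.

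*TUBB3* (chr16:89921392-89938761, plus strand), the beta isotype used as a marker of neurons, changed least. Its level was 8.09, 7.69 and 8.58 CPM with Ad CMV GFP and 11.3, 11.6 and 13.2 CPM with Ad CMV 3xFlag-*Esrrg*, so here replicate 2 stood next to replicate 3 of its group. The log2 fold change was 0.57 (SE 0.12), under the fold cutoff. Of its 7421 exon bases, 1584 are shared on the same strand with the protein-coding gene ENSG00000198211, a transcript unit that runs into *TUBB3*. Reads on the shared bases match both genes, and ENSG00000198211 had 0 counts in all 6 libraries. Whether such reads were counted for *TUBB3* is not stated in the sources used here. The level, fold change, place in the order and beta-pool share of *TUBB3* may therefore describe only part of its exons.

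*TUBG1* (chr17:42609641-42615238, plus strand) encodes the gamma-tubulin of the centrosome. It had 26.4, 30.9 and 30.1 CPM with Ad CMV GFP and 50.9, 71.6 and 79.3 CPM with Ad CMV 3xFlag-*Esrrg*. The groups were apart and *TUBG1* rose 2.31-fold (log2 fold change 1.21, SE 0.15, adjusted p = 1.7e-04). Its near copy *TUBG2* had means of 27.2 ± 0.86 and 30.2 ± 2.77 CPM (SD, n = 3) and a log2 fold change of 0.15 (SE 0.10, adjusted p = 0.24). Per kilobase of exon, *TUBG1* therefore made up 37.9, 43.2 and 41.5% of the reads of this pair with Ad CMV GFP and 53.9, 61.5 and 60.6% with Ad CMV 3xFlag-*Esrrg*, a ratio chosen after the values had been seen.

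Of the other tubulin genes, 1 of 8 tested genes rose and 0 fell. This was *TUBB4A*, a beta isotype of neurons and oligodendrocytes, with 1.99, 2.55 and 3.23 CPM against 4.0, 6.74 and 8.42 CPM and a log2 fold change of 1.30 (SE 0.27, adjusted p = 0.0028). *TUBB4A* lost its call with Ad CMV 3xFlag-*Esrrg* replicate 2 alone (log2 fold change 0.61, adjusted p = 0.064). It also lost the call when the outside-exon share entered the fit as a covariate (0.28, adjusted p = 0.52), so that 0 of the 8 rose in either fit. These 8 genes had a median log2 fold change of -0.23. *TUBD1* and *TUBE1*, the delta- and epsilon-tubulin genes of centriole triplets, had log2 fold changes of -0.42 (adjusted p = 0.019) and -0.35 (adjusted p = 0.016), both under the fold cutoff. *TUBA3D*, *TUBA3E*, *TUBA8* and *TUBB1* lay between -0.51 and 0.30 with overlapping groups. *TUBA3C*, *TUBAL3*, *TUBB8*, *TUBB8B* and *TUBB* were too low to test. *TUBB*, a major beta-tubulin gene in dividing cells, was listed at 0 in all 6 libraries, and 100% of its 100-base exon windows occur a second time in the full copy of the genome but 1.25% when the primary chromosomes alone are searched. Its level is therefore not known from these counts, and the beta-tubulin shares below leave it out.

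Levels of different genes were compared per kilobase of exon. With Ad CMV GFP the order was *TUBA1A* (mean of 164 CPM per kilobase), *TUBB4B* (57.4), *TUBB2B* (36.0), *TUBA1B* (22), *TUBB6* (13.3), *TUBB2A* (7.11), *TUBG1* (6.75), *TUBB3* (1.09), *TUBA4A* (0.45) and *TUBA1C* (0.22). Of the neighbours in this order, the ranges over libraries overlapped for *TUBB2A* and *TUBG1* alone. With Ad CMV 3xFlag-*Esrrg* they overlapped for 4 neighbouring pairs, which were *TUBB2B* with *TUBA1B*, *TUBB6* with *TUBB2A*, *TUBB2A* with *TUBG1* and *TUBB3* with *TUBA4A*. Per kilobase of exon free of other genes, *TUBA1B* (39.3 CPM per kilobase) came before *TUBB2B* (37.5) with Ad CMV GFP and with Ad CMV 3xFlag-*Esrrg* (85.0 and 73.2), and the rest of the Ad CMV GFP order held. The order rests on reads that the counting could place, and the share of 100-base exon windows found elsewhere was 10.2% for *TUBA1A*, 16.7% for *TUBA1B* and 9.23% for *TUBA1C*, and 4.76% or less for *TUBA4A*, *TUBB3*, *TUBB4B*, *TUBB6* and *TUBG1*.

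The composition of the pools was then compared, since the share of an isotype among the alpha or the beta genes of 1 library does not depend on how libraries are scaled. In the alpha pool, *TUBA1A* made up 88.0, 87.3 and 88.3% of reads per kilobase with Ad CMV GFP and 87.3, 88.3 and 88.4% with Ad CMV 3xFlag-*Esrrg*. These ranges overlap, with means of 87.8 ± 0.53% and 88.0 ± 0.63% (SD, n = 3, exact permutation test, two-sided p = 0.50), and the share of *TUBA1B* overlapped too, at 11.8 ± 0.58% and 11.4 ± 0.61%. The level of this share depends on the length used, and per kilobase of exon free of other genes *TUBA1B* held 17.5 ± 0.80% and 17 ± 0.85%, and *TUBA1A* 82.1 ± 0.76% and 82.4 ± 0.87%. The small shares of *TUBA1C* (0.120 ± 0.0099% and 0.189 ± 0.019%) and *TUBA4A* (0.242 ± 0.054% and 0.429 ± 0.035%) were higher with Ad CMV 3xFlag-*Esrrg* in all libraries.

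In the beta pool all 5 shares were apart between the groups. *TUBB4B* held 48.0, 51.3 and 50.2% with Ad CMV GFP and 54.4, 54.2 and 54.0% with Ad CMV 3xFlag-*Esrrg*. *TUBB2A* held 6.51, 5.94 and 6.18% and then 8.0, 8.59 and 8.60%. Both shares were higher in every Ad CMV 3xFlag-*Esrrg* library. Per kilobase of coding sequence the lead of *TUBB4B* turned, with 33.5 ± 1.51% for *TUBB4B* and 43.1 ± 1.22% for *TUBB2B* with Ad CMV GFP, and 38.1 ± 0.13% and 37.5 ± 0.57% with Ad CMV 3xFlag-*Esrrg*. *TUBB2B* held less of the pool, with 32.7, 30.2 and 31.4% against 25.9, 26 and 26.6%, and so did *TUBB6* (11.6 ± 0.31% and 10.6 ± 0.38%) and *TUBB3* (0.964 ± 0.14% and 0.623 ± 0.12%). For *TUBA1C*, *TUBA4A* and the 5 beta genes the exact permutation test gave a two-sided p of 0.10, the smallest that 3 libraries against 3 allow, and 0.13 after adjustment over the 9 shares, so no share could pass the 0.05 threshold in this design. The shares of *TUBB2A*, *TUBB2B* and *TUBB4B* in replicate 2 were closer to those of replicates 3 and 4 than to any control library. Its *TUBB3* share of 0.766% was nearer to the 0.829% of Ad CMV GFP replicate 3 than to the 0.536 and 0.567% of its own group. Its *TUBB6* share of 10.9% was nearest to the 10.7% of Ad CMV 3xFlag-*Esrrg* replicate 3. The 11.2% of Ad CMV GFP replicate 4 came next, before the 10.2% of Ad CMV 3xFlag-*Esrrg* replicate 4.

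**Figure D2:**
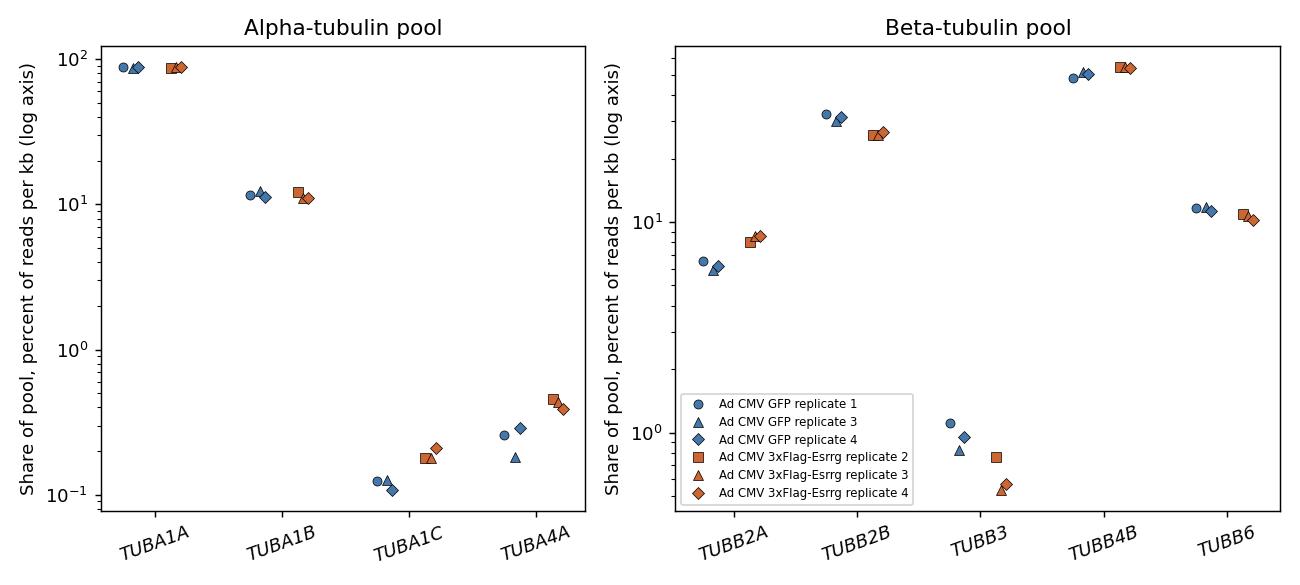
Share of each isotype in the alpha-tubulin pool (left) and the beta-tubulin pool (right) of a library, in percent of reads per kilobase on log axes, with 3 points per group, blue for Ad CMV GFP and orange for Ad CMV 3xFlag-Esrrg. The points of TUBA1A and TUBA1B overlap between the groups, TUBA1C, TUBA4A, TUBB2A and TUBB4B are higher in orange, and TUBB2B, TUBB3 and TUBB6 are lower.

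The 10 genes together took 0.106, 0.131 and 0.126% of all counts on genes with Ad CMV GFP and 0.177, 0.229 and 0.240% with Ad CMV 3xFlag-*Esrrg*. These are shares before any scaling, and *TUBA1A* alone was 56.4 to 58.9% of the tubulin counts. The order of the libraries by this share was the reverse of their order by the share of reads outside annotated exons, with replicate 2 of Ad CMV 3xFlag-*Esrrg* between the groups on both. Reads that matched more than 1 gene were 4.55 to 4.87% of all reads with Ad CMV GFP and 5.69 to 9.84% with Ad CMV 3xFlag-*Esrrg*.

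**Figure D3:**
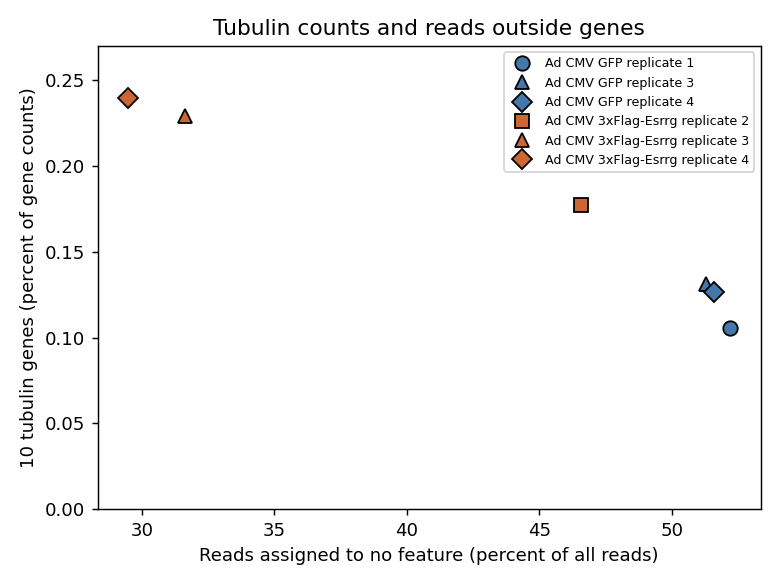
Counts on the 10 tubulin genes as a percent of all gene counts, plotted against the percent of all reads outside annotated exons, 1 point per library. The Ad CMV GFP libraries lie at 51.3 to 52.2% outside exons, Ad CMV 3xFlag-Esrrg replicate 2 at 46.6% and replicates 3 and 4 at 31.6 and 29.5% with the highest tubulin shares.

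For this reason the tubulin fit was repeated without replicates 3 and 4 and with the share of reads outside exons as a covariate. With Ad CMV 3xFlag-*Esrrg* replicate 2 alone against the 3 control libraries, where the lone library is assumed to vary like the controls, 8 of the 10 genes rose, against 10.2% of all tested genes. The exceptions were *TUBB2B* with a log2 fold change of 0.52 and *TUBB3* with 0.48. With the covariate 5 of the 10 rose, against 7.24% of all tested genes, and the median of the 10 log2 fold changes was 0.57. These 5 were *TUBA4A* (log2 fold change 1.44), *TUBA1C* (0.94), *TUBB2A* (0.93), *TUBB4B* (0.71) and *TUBG1* (0.61). The genes no longer called were *TUBB6* (0.53), *TUBA1B* (0.51), *TUBA1A* (0.42), *TUBB3* (0.42) and *TUBB2B* (0.31), and all 10 kept a positive fold change. In each of these fits *TUBA4A* and *TUBA1C* had the largest fold changes.

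**Figure D4:**
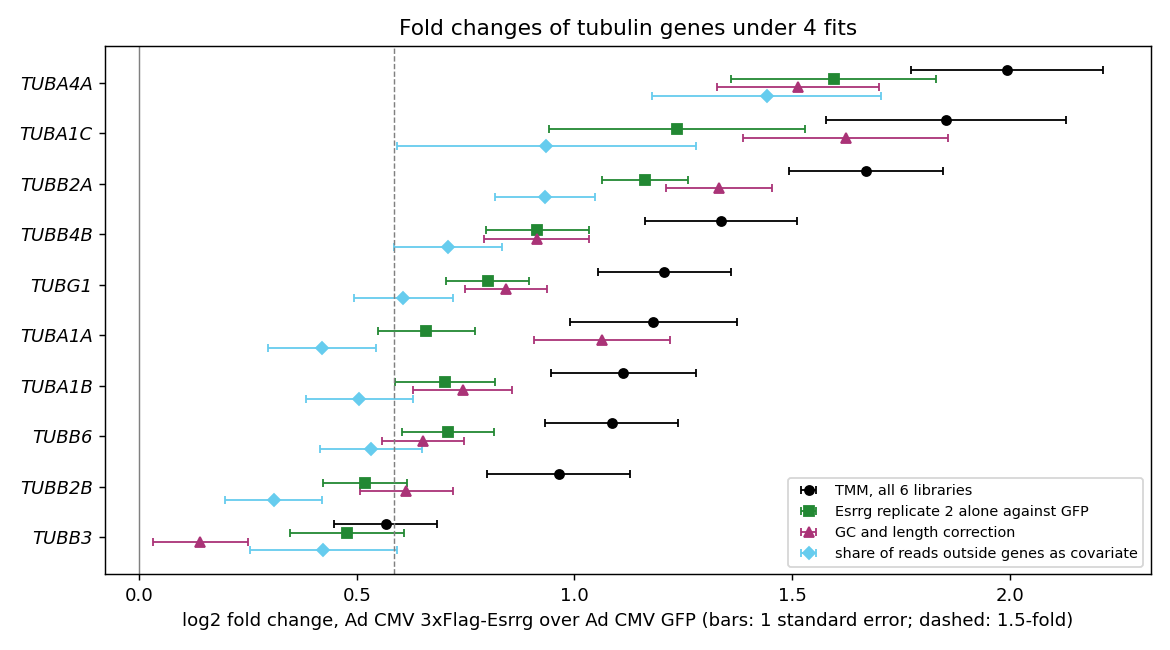
Log2 fold changes of the 10 tubulin genes, Ad CMV 3xFlag-Esrrg over Ad CMV GFP, with bars of 1 standard error, from the fit of all 6 libraries (black), from replicate 2 alone (green), after a correction for GC content and exon length (purple) and with the share of reads outside exons as a covariate (light blue). All points lie above 0, and the dashed line marks the 1.5-fold cutoff, below which 5 genes fall with the covariate.

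Promoter sequences were searched because ERRγ binds the ERR response element TCAAGGTCA, an extended form of AAGGTCA. RefSeq windows of 300 bases on GRCh38.p14, from 250 before to 50 after the annotated start, were matched for all 10 genes. TCAAGGTCA on either strand was in 0 of the 10 windows and in 0.359% of 27305 windows of all genes. AAGGTCA on either strand, which every TCAAGGTCA contains, was in the window of *TUBA1C* alone and in 3.97% of all windows. The match lies on the gene strand and starts 88 bases before the annotated RefSeq start. That start lies inside the *TUBA1C* span given above, which begins at chr12:49188736. The match is shown in capitals within chr12:49227813-49227869 (plus strand) because it is the only match among the 10 genes.
*TUBA1C*: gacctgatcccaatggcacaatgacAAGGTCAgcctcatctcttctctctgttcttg
TATAAA on either strand was in the window of *TUBB2A* alone, against 12% of all windows. These are matches of letters in 1 annotated start per gene, and binding was not measured.

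Genes that fold, modify or bind tubulin were counted in 8 lists that include the other tubulin genes. Of 113 tested genes, 30 rose and 12 fell, which is 26.5% and 10.6%, close to the 25.9% and 12.4% of protein-coding genes, and the median log2 fold change was 0.12. The folding list stood highest, with 11 of 19 tested genes higher, 0 lower and a median of 0.74. It holds the CCT chaperonin, in which new tubulin folds, with 4 of 8 subunits higher. It also holds prefoldin, which delivers tubulin to CCT, with 3 of 5 tested subunits higher. Of the cofactors that assemble the heterodimer, with *ARL2* and the cofactor-like gene *TBCEL* counted in, 4 of 6 tested genes were higher. *TBCEL* had a log2 fold change of -0.35 and was not called, and *TBCE* had 0 to 2 reads per library and was not tested. The strongest were the chaperonin subunit genes *CCT3* and *CCT7* and the prefoldin gene *PFDN2*. *CCT3* went from 277 ± 30.1 to 641 ± 147 CPM (SD, n = 3, log2 fold change 1.21, adjusted p = 2.9e-04), *CCT7* from 201 ± 23.9 to 460 ± 110 CPM (1.2) and *PFDN2* from 35.4 ± 4.27 to 77.2 ± 19.1 CPM (1.13). The 4 cofactor genes were *TBCA*, *TBCB*, *TBCC* and *TBCD*, with log2 fold changes of 0.75, 0.94, 1.00 and 0.71. With replicate 2 alone 3 of the 19 folding genes were called, and with the covariate 0 were, at a median of 0.24. The same fits called 8 and 5 of the 10 tubulin genes. In the fit scaled by library size alone 5 folding genes rose and 1 fell. Over all tested genes 8.98% rose in that fit and the median log2 fold change was -0.42, so lower values there were not particular to any list. With the covariate 7.24% of all tested genes rose, and after the GC content and length correction 13.2% did. The shares of all genes that fell in these fits are not given. The counts of lower genes from these fits therefore cannot be read as particular to any list. The counts of higher genes in the lists below are to be read beside these values.

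Gamma-tubulin is held in a ring by the TUBGCP proteins and small MZT subunits. In that list 3 of 11 genes rose and 1 fell, at a median of -0.12. *MZT2B* (log2 fold change 1.13), *TUBGCP2* (0.92) and *MZT2A* (0.68) rose, while *NEDD1*, which brings the ring complex to the centrosome, went from 40.9 ± 2.03 to 25.3 ± 2.05 CPM (SD, n = 3, log2 fold change -0.69, adjusted p = 3.0e-04). With the covariate 0 of the 11 rose and 0 fell, with log2 fold changes of 0.12 for *MZT2B*, 0.43 for *TUBGCP2*, 0.07 for *MZT2A* and -0.51 for *NEDD1*. *TUBGCP2* alone was called with replicate 2 alone, and *MZT2A* had 0.16 (adjusted p = 0.17) after the GC content and length correction. In the fit scaled by library size alone 1 ring gene rose and 3 fell.

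In the autoregulation list 2 of 12 genes rose and 1 fell, at a median of -0.06. *TTC5*, which reads the first residues of nascent tubulin, had 36.2 ± 2.58 and 45.7 ± 5.36 CPM (SD, n = 3) and a log2 fold change of 0.34 (adjusted p = 0.028), under the fold cutoff. Of the CCR4-NOT deadenylase genes that act after it, *CNOT3* (0.87) and *CNOT9* (0.74) rose and *CNOT6L* (-0.82) fell. With library size as the only scaling 0 rose and 3 fell, and with the covariate 0 rose and 1 fell.

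Of 20 tested genes for tubulin modification, 3 rose and 2 fell. *TTLL12*, a member of the tubulin tyrosine ligase-like family, and the polyglutamylase subunit genes *TPGS2* and *TPGS1* rose (log2 fold changes 1.16, 0.72 and 0.69), while *TTLL3*, a glycylase gene, and *AGBL3*, a deglutamylase gene, fell (-0.85 and -0.81). *TTL*, the ligase that puts the tyrosine back on alpha-tubulin, had a log2 fold change of 0.40 (adjusted p = 0.0058) and was not called. The detyrosinase genes *VASH1* and *VASH2* had -0.55 and -0.56 and were not called either, and their partner *SVBP* had 0.04, with a sign that changed with the scaling. With library size as the only scaling 1 gene of this list rose and 7 fell, and with the covariate 1 rose and 2 fell.

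Among microtubule-associated proteins 7 of 20 tested genes rose and 5 fell. *DPYSL4*, *MAP7D1*, *MAP1A* and the neuronal migration gene *DCX* rose (log2 fold changes 0.87, 0.82, 0.81 and 0.66). The dendritic gene *MAP2* went from 252 ± 9.93 to 153 ± 14.7 CPM (SD, n = 3, log2 fold change -0.72, adjusted p = 3.1e-04), *DPYSL5* fell by 0.85 on the log2 scale, and *MAP7*, which recruits kinesin to microtubules, fell the most, from 3.06 ± 0.38 to 0.697 ± 0.20 CPM (-2.12). *MAPT*, which encodes tau, had 1 to 5 reads per library and was not tested. The counts of this list changed with the processing. They were 0 higher and 6 lower with library size as the only scaling, and 2 higher and 4 lower with the covariate. After the GC content and length correction they were 1 higher and 3 lower (median -0.20).

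Of 11 genes for end binding, the EB family genes *MAPRE1* (0.74) and *MAPRE3* (0.66) rose and 0 fell. With library size as the only scaling 0 rose and 4 fell, and with the covariate or replicate 2 alone 0 rose and 1 fell. Of 12 destabilising and severing genes, 1 rose and 3 fell, at a median of -0.34. The severing enzyme genes *FIGN* and *FIGNL1* fell (-0.79 and -0.74), and the neuronal stathmin gene *STMN2*, whose product binds free tubulin dimers, went from 142 ± 2.04 to 88.8 ± 14.7 CPM (SD, n = 3, log2 fold change -0.68). With library size as the only scaling 1 gene of this list rose and 7 fell, and after the GC content and length correction or with replicate 2 alone 1 rose and 1 fell.

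**Figure D5:**
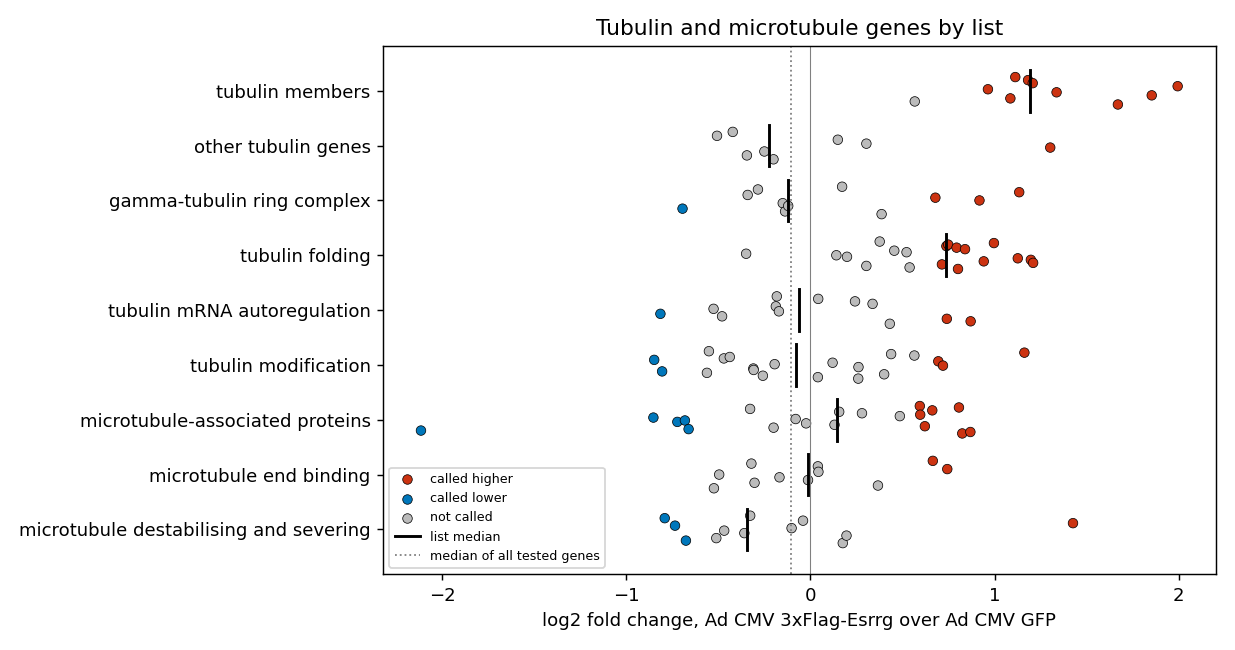
Log2 fold change, Ad CMV 3xFlag-Esrrg over Ad CMV GFP, of every tested gene of the 10 tubulin genes and 8 related lists, with red points for genes called higher, blue for genes called lower, grey for genes not called, black bars for list medians and a dotted line for the median of all tested genes (-0.10). The tubulin genes lie to the right with a median of 1.19, the folding list follows with 0.74, and the other lists have medians between -0.34 and 0.14.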

How the data were processed

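RNA sequencing of 6 SH-SY5Y libraries was analysed. Per the submitters' processing notes, Trim Galore 0.6.7, STAR 2.7.9a, HTSeq 0.11.3 and GRCh38 were used, and the annotation release and strand setting are not given in the sources used here. The authors deposited raw counts per gene, with 5 summary entries that were left out of the library sizes (no-feature, ambiguous and multiply aligned reads are given as percentages in the report). Of 67060 gene entries, 44 duplicate entries of the pseudoautosomal regions were left out, and 90.2% of identifiers were found in GENCODE 44.

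Counts were filtered with filterByExpr (24500 genes), scaled by TMM and tested in edgeR 4.0.16 (R 4.3.3) with the quasi-likelihood test and Benjamini-Hochberg adjustment over all tested genes. Calls needed an adjusted p below 0.05 and at least a 1.5-fold change. The standard error was obtained by dividing the size of a log2 fold change by the root of its F statistic. Shares used reads per kilobase of the union of exons and exact permutation tests. Alternatives used DESeq2 1.42.0, limma 3.58.1 and mgcv 1.9.3. The procedure was tested on simulated data. Named genes were all tubulin genes, up to 3 called genes per direction and list whose mean count was 50 or more, and 9 fixed genes. *TBCA* to *TBCD*, *TBCE* and *TBCEL* were added after their values were seen. A few items that this rule selects are not reported. The tubulin genes and the lists were chosen with earlier results of these data known, and so were the covariate and the correction. The fit of replicate 2 alone and shares on exon bases free of other genes were added after seeing the data. The number of reads limits the precision of genes with few counts.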

Additional observations from a re-analysis of the deposited data

Results flagged for a closer look

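Reads assigned to more than 1 gene were 5.69% of all reads in the lowest Ad CMV 3xFlag-*Esrrg* library, above the 4.55 to 4.87% of the Ad CMV GFP libraries. Reads aligned to several places were 9.33% of all reads in the lowest Ad CMV 3xFlag-*Esrrg* library, above the 7.16 to 7.41% of the Ad CMV GFP libraries. Both classes lie outside the counts tested here, and their part in the tubulin results was not tested.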

How the results depend on the processing

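Of 190 fold changes of the 10 tubulin genes under 19 alternatives, 178 kept their call, 5 lost it, 7 gained it and 0 changed sign. The count of tubulin genes that rose, 9, became 5 with the share of reads outside exons as a covariate, and it was 8 to 10 under the other alternatives. *TUBB3* was called with RLE size factors, DESeq2, no fold cutoff, the replicate block and without Ad CMV GFP replicate 4 or Ad CMV 3xFlag-*Esrrg* replicate 2 or 3, and its log2 fold change was 0.072 with the block and the GC content and length correction. The count of related genes that rose, 30, became 9 with library size as the only scaling, 9 in a test against a 1.5-fold threshold, 19 with the GC content and length correction, 4 with the covariate and 9 with Ad CMV 3xFlag-*Esrrg* replicate 2 alone. The count that fell, 12, became 33 with library size alone, 30 with no fold cutoff, 2 against the 1.5-fold threshold and 19 with protein-coding genes only. The shares of all tested genes that fell under these alternatives are not given. Library size alone moved the median of all genes to -0.42 and that of the tubulin genes to 0.85. *SVBP* reversed to -0.30 with library size alone, -0.0988 with protein-coding genes only, -0.36 with the covariate and -0.26 with replicate 2 alone, and ranged from -0.057 to 0.27 when 1 library was left out (-0.00987 without Ad CMV GFP replicate 4). The *TUBA1A* share difference of 0.139 percentage points reversed to -0.154, -0.024 and -0.059 without Ad CMV GFP replicate 3 or Ad CMV 3xFlag-*Esrrg* replicate 3 or 4, in a range of -0.154 to 0.501 over the libraries left out. The cause was not tested. Only replicate numbers 3 and 4 occur in both groups, and the deviations of same-numbered libraries correlated at 0.075 and -0.0001. With the replicate block 10 tubulin genes and 33 related genes rose, against 19.4% of all tested genes. That contrast rests on replicates 3 and 4 alone. Ad CMV GFP replicate 1 and Ad CMV 3xFlag-*Esrrg* replicate 2 add nothing to it, and few libraries are left to estimate the spread. Low counts limit *TUBA1C* and *TUBA4A*.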
